A study of Mus musculus with 6 samples.

Results

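Kit, Flt3, Cd34, Ly6a, Ly6d, Cd93, Cd27, Meis1, Lmo2 and Gata2 are receptors, surface antigens and transcription factors of early blood progenitors, and their RNA was followed here in mouse proB cells. The 10 genes were taken by name from a table of 22098 gene symbols, each represented by its RefSeq transcript with the highest mean over the libraries. The cells were sorted from the bone marrow of C57BL/6 mice aged 6 to 7 weeks, and total RNA was sequenced from 6 libraries, 1 for each of 3 genotypes in each of 2 fractions. The genotypes were Ikaros_ZnF4-/- (ZnF4), a mutant of zinc finger 4 of the transcription factor Ikaros, Ikaros_ZnF1-/- (ZnF1), a mutant of zinc finger 1, and wt. The fractions were the pool of Hardy fractions C and C' (fraction C) and Hardy fraction B (fraction B), which is the earlier stage. How the alleles were made, the gates of the sort and the number of animals behind a library are not stated in the sources at hand. The series asks what single fingers of the DNA-binding domain of Ikaros do.

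The genes act at the steps that lead from a multipotent cell to a B-cell precursor. Kit and Flt3 are receptor tyrosine kinases that bind stem cell factor and Flt3 ligand and support the growth of progenitors. Flt3 is normally shut off as cells commit to the B lineage, while Kit stays on early proB cells. Cd34, a sialomucin, and Ly6a, the stem cell antigen Sca-1, are surface proteins used to sort stem and multipotent cells. Ly6d, an anchored protein of the Ly6 family, marks lymphoid progenitors that lean to the B lineage, and Cd93 is a surface lectin of early B cells. Cd27 is a receptor of the TNF receptor family whose ligand is Cd70. Meis1 is a homeodomain protein that works with Pbx and Hox proteins, Lmo2 is an adaptor that joins Ldb1, Tal1 and Gata factors in a complex, and Gata2 is a zinc finger factor of stem cells and mast cells.

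Levels are in RPKM (reads scaled to transcript length and library size), as the authors computed them and rounded to 0.1. Read numbers could not be recovered, so the depth of each library is unknown, and 10342 to 10947 genes reached 1 RPKM per library. With 1 library for each genotype and fraction, no difference between single libraries could be checked against replicates, and the labels do not say whether libraries share animals. The B-lineage factor Pax5 was measured in every library (at least 91.9 RPKM). Enpep, the BP-1 antigen that marks fraction C, was at 43.1 (ZnF4), 20.2 (ZnF1) and 56.6 RPKM (wt) in fraction C and at 1.1, 2.3 and 3.5 RPKM in fraction B for the same genotypes, so it stood in the order of the fraction labels. Markers of other marrow cells differed between libraries, above all in the ZnF1 library of fraction C. There the 17 granulocyte and monocyte genes summed to 43593.8 RPKM, against 1036.1 to 3863.3 RPKM in the other 5 libraries. The 4 mutant libraries had 11.9 to 15.0 RPKM of the Y-linked Ddx3y and listed Xist at 0, while wt cells of fractions C and B had 91.9 and 81.3 RPKM of Xist and listed Ddx3y at 0. A difference between either mutant and wt therefore cannot be told apart from one between the sexes of the donors.

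**Figure D1:**
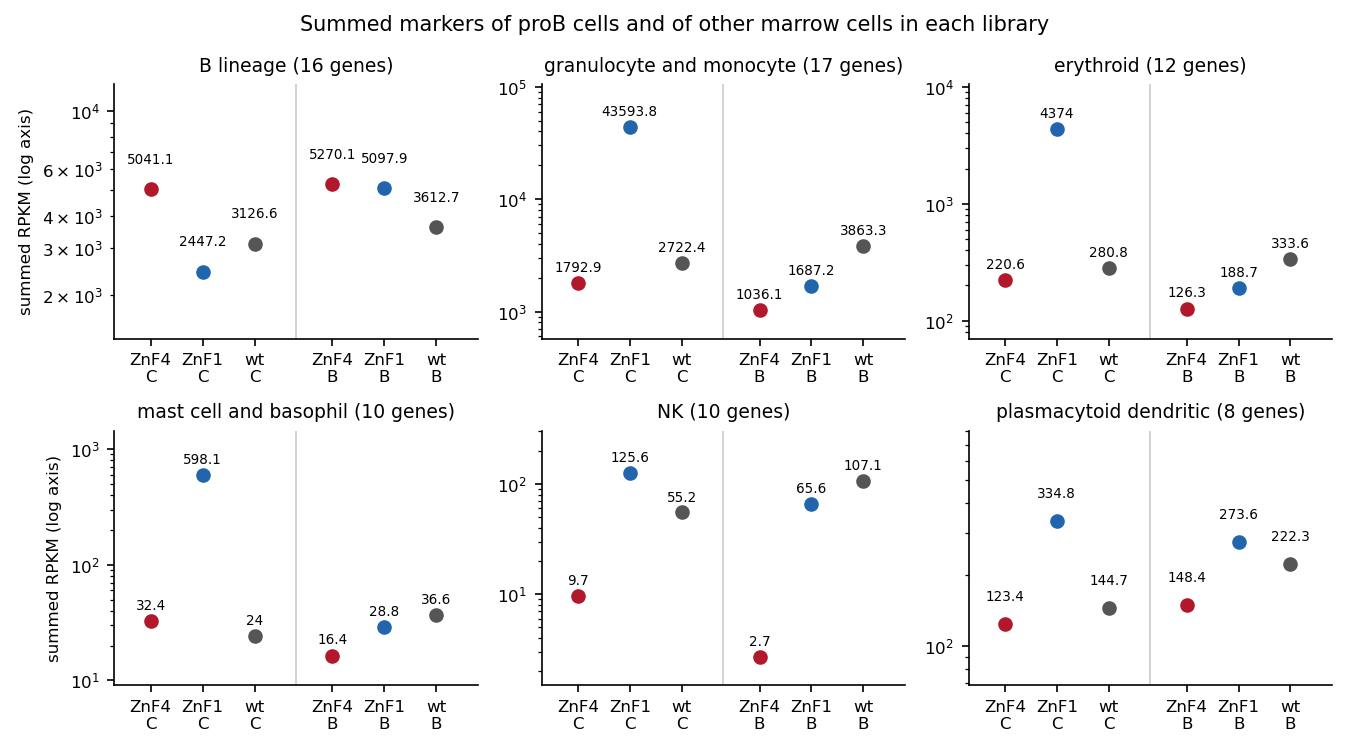
Each panel gives the summed RPKM (log axis) of a list of marker genes in the 6 libraries, with ZnF4, ZnF1 and wt from left to right in fraction C and then in fraction B. Granulocyte, erythroid and mast cell sums stand highest in the ZnF1 library of fraction C (43593.8, 4374.0 and 598.1 RPKM), and the NK sum is lowest in the ZnF4 libraries (9.7 and 2.7 RPKM).

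Among the receptors, Kit had 10.7 and 7.0 RPKM in ZnF4 cells of fractions C and B, 15.0 and 14.6 RPKM in ZnF1 cells, and 10.3 and 14.2 RPKM in wt cells. It thus kept a middling level throughout, above 37.6% to 55.7% of the 10943 genes whose mean reached 1 RPKM. A second Kit transcript, a few bases shorter, was listed at 0.3 to 0.6 RPKM. Flt3 had 0.4 RPKM in ZnF4 cells of either fraction, 12.2 and 29.5 RPKM in ZnF1 cells of fractions C and B, and 1.7 and 10.1 RPKM in wt cells. The order was ZnF4 lowest, wt in between and ZnF1 highest in both fractions. The share of all genes with this order was not counted. Flt3 in ZnF4 cells lay above only 2.5% and 3.3% of the 10943 genes.

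Of the surface antigens, Ly6d and Cd93 were abundant and the other 3 were not. Ly6d had 143.4 and 277.4 RPKM in ZnF4 cells of fractions C and B, 91.2 and 264.0 RPKM in ZnF1 cells, and 46.7 and 233.7 RPKM in wt cells. In fraction B it lay above 99.3% to 99.4% of the 10943 genes in every genotype. Cd93 had 123.0 and 136.1 RPKM in ZnF4 cells, 64.8 and 120.9 RPKM in ZnF1 cells, and 91.6 and 115.2 RPKM in wt cells. Its 6 values span a narrow range compared with those of Flt3. Cd27 had 1.8 and 2.2 RPKM in ZnF4 cells of fractions C and B, 19.0 and 19.9 RPKM in ZnF1 cells, and 5.6 and 10 RPKM in wt cells. Ly6a had 1.5 and 0.9 RPKM in ZnF4 cells, 8.1 and 24.1 RPKM in ZnF1 cells, and 3.6 and 9.3 RPKM in wt cells. Both genes repeated the order of Flt3 within each fraction. For Ly6a, the ZnF1 value of fraction C lay below the wt value of fraction B. Cd34 had 0.5 and 0.2 RPKM in ZnF4 cells, 14.4 and 1.2 RPKM in ZnF1 cells, and 1.2 and 1.7 RPKM in wt cells. Only the ZnF1 library of fraction C stood above 1.7 RPKM, and a second Cd34 transcript was likewise highest there (7.6 RPKM, against at most 0.9 RPKM elsewhere).

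The transcription factors fell into different patterns. Meis1 had 0.3 RPKM in ZnF4 cells of fraction C and was listed at 0 in fraction B, had 3.1 and 7.0 RPKM in ZnF1 cells of fractions C and B, and 2.7 and 4.0 RPKM in wt cells. It was low everywhere, at no more than 7.0 RPKM. Lmo2 had 18.3 and 14.0 RPKM in ZnF4 cells, 93.2 and 25.5 RPKM in ZnF1 cells, and 17.1 and 22.5 RPKM in wt cells. Gata2 had 0.3 RPKM in ZnF4 cells of fraction C and was listed at 0 in fraction B, had 14.8 and 0.9 RPKM in ZnF1 cells of fractions C and B, and 0.8 and 0.9 RPKM in wt cells. Lmo2 and Gata2 shared with Cd34 a single high library, ZnF1 in fraction C. The mean of all 10 genes reached 1 RPKM, but Cd34 and Gata2 only through that library, since 8 of the 10 pass without it.

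**Figure D2:**
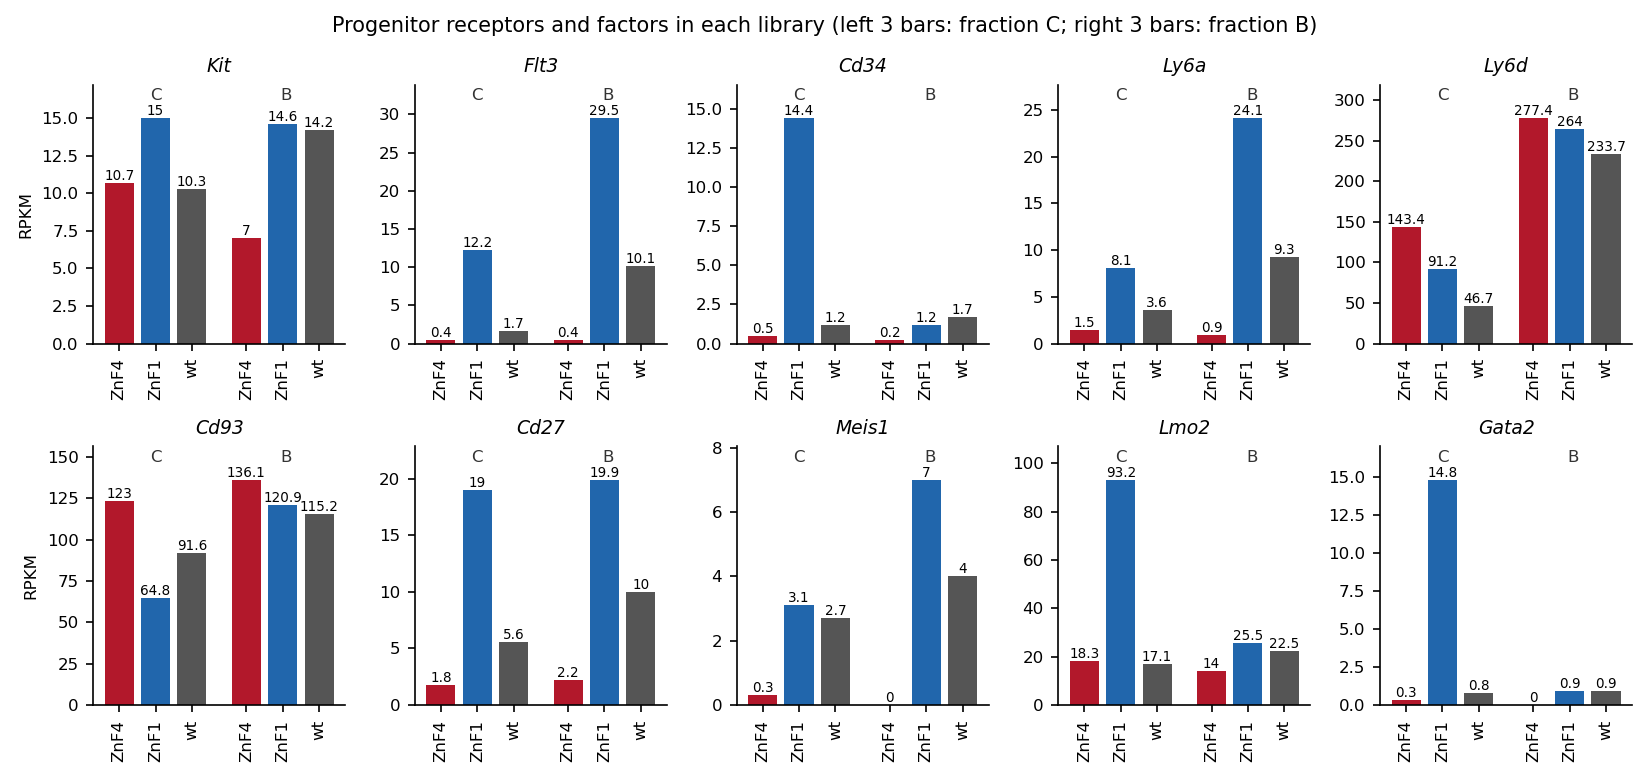
Bars give the RPKM of each gene in each library, 1 panel per gene with its own axis from 0, with ZnF4, ZnF1 and wt from left to right in fraction C and then in fraction B. Flt3, Ly6a, Cd27 and Meis1 are low in both ZnF4 libraries, and Cd34, Lmo2 and Gata2 are high in 1 library, ZnF1 in fraction C (14.4, 93.2 and 14.8 RPKM).

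In ZnF4 cells compared with wt, Ly6d and Cd93 were higher in both fractions. Of the 10 genes, 6 were lower in both by any size, Flt3, Cd34, Ly6a, Cd27, Meis1 and Gata2. That count is near the background, as 45.4% of all 10943 genes were lower in both. In both fractions 2 of the 10 were at least 2-fold lower, Cd27 and Meis1 (4.73% of all genes), and 0 at least 2-fold higher (2.59%). Fraction C had 2 genes at least 2-fold lower (6.12% of all genes) and 1 at least 2-fold higher, Ly6d (3.55%). In fraction B, 5 were at least 2-fold lower (9.81% of all genes) and 0 higher (3.7%). Folds were counted on the log2(RPKM + 1) scale, on which folds of weakly expressed genes come out too small. Fewer cells of a type and less RNA per cell cannot be told apart in such sorted pools.

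For Flt3, the log2(RPKM + 1) difference between ZnF4 and wt was -0.95 in fraction C and -2.99 in fraction B. On the RPKM scale itself this is a wt value 4.25 and 25.2 times that of ZnF4, although 0.4 RPKM is only a few steps of the rounding. Cd27 differed by -1.24 in fraction C and -1.78 in fraction B, Ly6a by -0.88 and -2.44, and Cd34 by -0.55 and -1.17. The 4 genes were thus lower in ZnF4 cells in 2 of 2 fractions, each by more in fraction B. Meis1 differed by -1.51 in fraction C, and in fraction B a size depends on the added constant because ZnF4 is listed at 0. Kit differed by 0.05 in fraction C and -0.93 in fraction B, and Lmo2 by 0.09 and -0.65. Both differences in fraction C became negative when libraries were rescaled on B-lineage genes (-0.32 for Kit and -0.29 for Lmo2). Ly6d was higher in ZnF4 cells by 1.60 in fraction C and 0.25 in fraction B, and Cd93 by 0.42 and 0.24. Over the 6 libraries limma with genotype and fraction as terms, which leaves 2 residual degrees of freedom, called 0 of the 10 genes for ZnF4 against wt (Benjamini-Hochberg adjusted p under 0.05; 0.0274% of all genes were called), while 4 had an unadjusted p under 0.05, as did 17.6% of all genes. In that limma fit Cd27 had a log2 change of -1.51 ± 0.24 (SE) with an adjusted p of 0.117, Meis1 -1.92 ± 0.40 with 0.145, Flt3 -1.97 ± 0.52 with 0.188 and Ly6a -1.66 ± 0.51 with 0.224. The spread in this fit is how far genotype differences vary between fractions. Without the ZnF1 library of fraction C, limma called Cd27 (adjusted p = 0.00938), Meis1 (0.0108), Ly6a (0.035) and Flt3 (0.0419), and without that of fraction B it called these 4 and Cd34. These fits called 31.6% and 30.8% of all genes, so 4 and 5 of the 10 lie near the background. Over all 12 alternatives the adjusted p of Cd27 in limma ranged from 0.00938 to 1.0, and those of Meis1, Ly6a and Flt3 also reached 1.0.

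Markers of several other cell types differed between ZnF4 and wt cells. All 10 NK-cell genes were lower in ZnF4 in both fractions, and their sum was 9.7 and 2.7 RPKM in ZnF4 cells of fractions C and B, against 55.2 and 107.1 RPKM in wt cells. In the ZnF4 library of fraction B, 6 of the 10 were listed at 0, among them Ncr1. The 8 plasmacytoid dendritic genes summed to 123.4 and 148.4 RPKM in ZnF4 cells and 144.7 and 222.3 RPKM in wt cells, and their defining Siglech was at 0.1 RPKM in both ZnF4 libraries, against 7.5 and 24.2 RPKM in wt. The granulocyte and monocyte genes summed to 1792.9 and 1036.1 RPKM in ZnF4 cells and 2722.4 and 3863.3 RPKM in wt cells, and the erythroid genes to 220.6 and 126.3 RPKM and to 280.8 and 333.6 RPKM. The 7 T-cell genes summed to 63.0 and 35.6 RPKM in ZnF4 cells and 75.6 and 73.5 RPKM in wt cells, with Cd3e at no more than 1.3 RPKM in these 4 libraries. These sums include Lck at 52.4 and 32.3 RPKM in ZnF4 cells and 54.4 and 31.8 RPKM in wt cells. Of the 6 T-cell genes past the filter, 5 were lower in ZnF4 and 1 higher in each fraction. Mast cell and basophil genes summed to 32.4 and 16.4 RPKM in ZnF4 cells and 24.0 and 36.6 RPKM in wt cells, and megakaryocyte genes to 3.0 and 0.9 RPKM and to 2.4 and 3.0 RPKM, so both sums were higher in ZnF4 in fraction C and lower in fraction B. NK and plasmacytoid dendritic cells can express Flt3, Ly6a or Cd27, and the part of other cells in the differences was not tested.

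Promoters are shown for Flt3, Cd27 and Meis1, 3 of the genes that were lower in ZnF4 cells in both fractions, because the mutated fingers belong to a DNA-binding domain. RefSeq promoter windows (GRCm38.p6, 250 bases before to 50 after the start, 5′ to 3′ on the gene's strand) were found for 6 of the 10 genes, and capitals mark the letters TGGGAA or their reverse complement TTCCCA, a core that Ikaros binds. The windows are chr5:147400440-147400739 (minus strand) for Flt3, chr6:125236978-125237277 (minus strand) for Cd27 and chr11:19018920-19019219 (minus strand) for Meis1.
Flt3: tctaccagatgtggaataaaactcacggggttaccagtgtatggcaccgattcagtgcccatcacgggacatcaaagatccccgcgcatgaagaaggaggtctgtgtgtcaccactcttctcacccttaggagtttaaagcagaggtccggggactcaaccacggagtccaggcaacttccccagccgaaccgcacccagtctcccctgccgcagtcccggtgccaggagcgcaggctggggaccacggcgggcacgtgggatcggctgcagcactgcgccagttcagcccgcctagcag
Cd27: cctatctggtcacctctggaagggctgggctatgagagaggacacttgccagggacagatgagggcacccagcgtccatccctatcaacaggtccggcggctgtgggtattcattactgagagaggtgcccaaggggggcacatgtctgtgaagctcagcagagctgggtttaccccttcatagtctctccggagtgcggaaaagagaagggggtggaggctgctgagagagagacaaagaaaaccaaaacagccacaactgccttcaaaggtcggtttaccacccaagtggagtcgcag
Meis1: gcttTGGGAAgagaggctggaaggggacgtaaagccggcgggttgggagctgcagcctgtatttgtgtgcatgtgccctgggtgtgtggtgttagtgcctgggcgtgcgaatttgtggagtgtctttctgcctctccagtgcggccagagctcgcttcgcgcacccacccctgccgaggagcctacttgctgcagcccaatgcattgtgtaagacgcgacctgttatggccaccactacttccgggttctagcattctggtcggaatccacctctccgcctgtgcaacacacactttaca
Searched on both strands, the core was found once in the Meis1 window, with its first base at position -246 from the start, and in no window of Flt3, Cd27, Cd34, Kit or Gata2. It occurs in 25.6% of 32851 RefSeq windows of the same length. The letters AGATAA, which Gata factors bind, and TGACAG, which Meis proteins bind, were in none of the windows of the 6 genes, and occur in 11.2% and 19.2% of all windows. CAGCTG, an E-box of the kind that E proteins bind, was found once, in the second Gata2 window, starting at base 18 after the start, and occurs in 16.3% of all windows. The 2 matches lie in different windows, and a match of letters is not a bound site. Windows of Ly6a, Ly6d, Cd93 and Lmo2 were not analysed here.

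In ZnF1 cells compared with wt, no gene of the 10 was at least 2-fold lower in either fraction, and Flt3 was at least 2-fold higher in both. This comparison uses the same wt libraries as that of ZnF4. Higher in both fractions by any size were 7 of the 10 genes, where 24.1% of all genes were. At least 2-fold in both fractions, 1 was higher (0.758% of all genes) and 0 lower (0.804%). In fraction C, 5 were at least 2-fold higher (12.6% of all genes) and 0 lower (7.39%). Flt3, Cd34, Cd27, Lmo2 and Gata2 made up these 5, but Cd34 and Gata2 passed the filter only through this ZnF1 library and so had to be high there. In fraction B, 2 were at least 2-fold higher, Flt3 and Ly6a (2.07% of all genes), and 0 lower (2.21%).

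Flt3 was higher in ZnF1 than in wt by 2.29 on the log2(RPKM + 1) scale in fraction C and by 1.46 in fraction B. Ly6a was higher by 0.98 and 1.29, and Cd27 by 1.60 and 0.93. These 3 genes were thus higher in ZnF1 cells in 2 of 2 fractions. Cd34 differed by 2.81 in fraction C and -0.30 in fraction B, Lmo2 by 2.38 and 0.17, and Gata2 by 3.13 and 0.00. Each of the 3 was at least 2-fold higher in fraction C and not in fraction B, and the difference between fractions was not tested. Ly6d differed by 0.95 and 0.18, Meis1 by 0.15 and 0.68, Kit by 0.50 and 0.04, and Cd93 by -0.49 and 0.07. With libraries rescaled on B-lineage genes, the small differences of fraction B became negative for Kit (-0.35), Ly6d (-0.24), Cd93 (-0.35) and Lmo2 (-0.23). In the limma fit over 6 libraries 0 of the 10 genes were called for ZnF1 against wt (0.0274% of all genes), and 2 had an unadjusted p under 0.05, as did 9.3% of all genes. The log2 change in limma was 1.87 ± 0.52 (SE) for Flt3 with an adjusted p of 0.496, and 1.26 ± 0.24 for Cd27 with 0.4. Without the ZnF1 library of fraction B, limma called Gata2 (3.02, adjusted p = 0.00616), Cd34 (2.65, 0.00778), Lmo2 (2.20, 0.00836) and Cd27 (1.46, 0.0156) as higher and Cd93 (-0.54, 0.0406) as lower. This fit called 37.6% of all genes and takes ZnF1 from fraction C alone, the library through which Gata2 and Cd34 passed the filter. The adjusted p of each of these 5 genes reached 1.0 in another alternative.

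The library in which Cd34, Lmo2 and Gata2 were high is the one in which markers of myeloid, erythroid and mast cells were high. In ZnF1 cells of fraction C all 17 granulocyte and monocyte genes, all 12 erythroid genes and 7 of 10 mast cell and basophil genes were at least 2-fold above wt. Of all genes 12.6% were. Among these markers, Cd14, Ms4a2, Fcer1a and Il1rl1 passed the filter only through this library. The erythroid genes summed to 4374.0 RPKM there, against 280.8 RPKM in wt of fraction C, and the mast cell and basophil genes to 598.1 against 24.0 RPKM. The mast cell protease Cpa3 was at 31.2 against 1.1 RPKM, while Tpsb2 and Mcpt4 of mature mast cells were listed at 0 in every library. Megakaryocyte genes summed to 43.4 against 2.4 RPKM, NK genes to 125.6 against 55.2 RPKM, and plasmacytoid dendritic genes to 334.8 against 144.7 RPKM. The B-lineage genes summed to 2447.2 against 3126.6 RPKM. T-cell genes summed to 84.6 against 75.6 RPKM, a sum that includes Lck at 16.7 against 54.4 RPKM. Of the 6 T-cell genes past the filter, 5 were higher in ZnF1 and 1 lower, with a median log2(RPKM + 1) difference of 0.93. Among the 5, Cd3d and Cd3g passed the filter only through this ZnF1 library and so had to be high there. In fraction B the granulocyte and erythroid sums were lower in ZnF1 cells (1687.2 and 188.7 RPKM) than in wt cells (3863.3 and 333.6 RPKM), and Cd34, Lmo2 and Gata2 were not at least 2-fold higher there. The part of such cells in the difference of Cd34, Lmo2 and Gata2 was not tested. Flt3, Ly6a and Cd27 were higher in ZnF1 also in fraction B. The NK sum there was 65.6 RPKM in ZnF1 cells and 107.1 RPKM in wt cells. The plasmacytoid dendritic sum was 273.6 and 222.3 RPKM, but 5 of its 8 genes were lower in ZnF1 and 3 higher. Their median log2(RPKM + 1) difference was -0.42, and Siglech was at 20.2 RPKM in ZnF1 cells and 24.2 RPKM in wt cells. The part of these cells in the differences of Flt3, Ly6a and Cd27 was not tested.

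**Figure D3:**
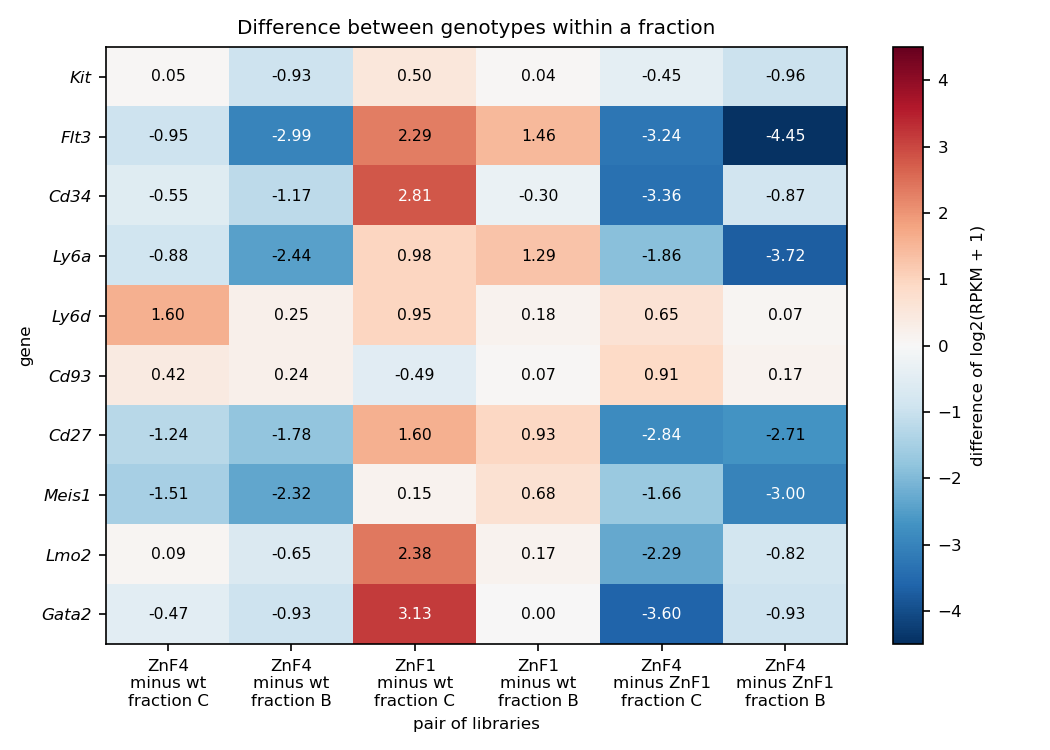
Each cell is the difference in log2(RPKM + 1) of a gene between a pair of libraries of 1 fraction, from blue (lower in the genotype named first) to red (higher). Flt3, Cd34, Ly6a, Cd27, Meis1 and Gata2 are negative in all 4 columns that involve ZnF4. The strongest red is Gata2 for ZnF1 minus wt in fraction C (3.13). Meis1 and Gata2 are listed at 0 in ZnF4 cells of fraction B, so their values in those columns depend on the added constant.

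Set directly against each other, ZnF4 cells had less Flt3, Ly6a, Cd27 and Meis1 than ZnF1 cells, at least 2-fold in both fractions. Of the 10 genes, 8 were lower in both fractions by any size, Cd34 and Gata2 among them, where 32.1% of all genes were. At least 2-fold in both fractions, these 4 were lower (5.45% of all genes) and 0 higher (3.11%), and 6 were lower with a pseudocount of 0.25 or 0.1. The genes added by the smaller pseudocounts were Cd34 and Gata2. Both passed the filter only through the ZnF1 library of fraction C and so had to be high there. In fraction C, 7 were at least 2-fold lower (14.1% of all genes), Cd34 and Gata2 through the library that took them past the filter, and 0 higher (7.41%), and in fraction B 4 were lower (10.9%) and 0 higher (4.95%). This comparison involves no wt library. Both mutants share the expressed Y-linked genes and the absence of Xist, so it is between animals of 1 apparent sex.

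Cd27 fell in ZnF4 compared with ZnF1 by a log2 change of -2.77 ± 0.24 (SE) with an adjusted p of 0.0377 in limma with Benjamini-Hochberg adjustment, and it was the 1 gene of the 10 to pass (1.82% of all genes did). Its differences were -2.84 in fraction C and -2.71 in fraction B, nearly the same size. Flt3 had the largest change of the 10, -3.84 ± 0.52 with an adjusted p of 0.0542 in limma, from -3.24 in fraction C and -4.45 in fraction B. Meis1 (-2.33 ± 0.40, adjusted p = 0.0692 in limma) and Ly6a (-2.79 ± 0.51, adjusted p = 0.0769) came next. Lmo2, Gata2 and Cd34 differed by -2.29, -3.60 and -3.36 in fraction C, where the ZnF1 library holds the myeloid and erythroid RNA. In fraction B Lmo2 differed by -0.82 and Cd34 by -0.87, and their adjusted p in limma was 0.207 and 0.226, with 0.218 for Gata2. Kit differed by -0.45 in fraction C and -0.96 in fraction B. Cd93 was higher in ZnF4 by 0.91 and 0.17 and Ly6d by 0.65 and 0.07, but rescaling on B-lineage genes turned the Ly6d difference in fraction C to -0.15. The call of Cd27 was lost in limma without the ZnF4 library of fraction C (adjusted p = 0.257) or of fraction B (0.45), without a filter on low values (0.0872) and with libraries rescaled on B-lineage genes (0.0685), and its adjusted p ranged from 0.00277 to 0.45 over 12 alternatives.

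In the same limma comparison the NK genes Gzma and Klrb1c (adjusted p = 0.0494 and 0.0487) and the plasmacytoid dendritic genes Bst2 and Siglech (0.0359 and 0.0487) fell as well. The NK sum was 9.7 and 2.7 RPKM in ZnF4 cells of fractions C and B and 125.6 and 65.6 RPKM in ZnF1 cells. The plasmacytoid dendritic sum was 123.4 and 148.4 RPKM in ZnF4 cells and 334.8 and 273.6 RPKM in ZnF1 cells. Their part in the lower Cd27 and Flt3 was not tested.

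The step between fractions differed by gene and by genotype. Ly6d was lower in fraction C than in fraction B in all 3 genotypes, by a log2(RPKM + 1) difference of -0.95 in ZnF4, -1.52 in ZnF1 and -2.30 in wt. Cd93 and Cd27 were also lower in all 3, by smaller sizes, so that 3 of the 10 genes were lower by any size, where 13.4% of all genes were. At least 2-fold in all 3 genotypes was 0 of the 10 genes in either direction (0.0274% of all genes in each). Within wt, 3 were at least 2-fold lower in fraction C, Flt3, Ly6a and Ly6d (1.01% of all genes), and 0 higher (0.338%). Within ZnF1, 3 were at least 2-fold lower (4.16%), again Flt3, Ly6a and Ly6d, and 3 higher (10.1%), Cd34, Lmo2 and Gata2, of which Cd34 and Gata2 passed the filter only through the higher library. Within ZnF4, 0 were lower (0.585%) and 0 higher (2.76%). With libraries rescaled on B-lineage genes, 0 of the 10 were at least 2-fold lower in ZnF1.

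Flt3 was lower in fraction C by 1.21 in ZnF1 and by 2.04 in wt, and equal at 0.4 RPKM in both ZnF4 libraries. Since it stood at a few rounding steps there, no step of the size seen in wt was measurable in ZnF4. Ly6a differed by 0.40 in ZnF4, -1.46 in ZnF1 and -1.16 in wt. Cd93 was lower in fraction C by 0.14, 0.89 and 0.33 in ZnF4, ZnF1 and wt. Cd27 differed by -0.19, -0.06 and -0.74 in the same order, and its ZnF1 step turned to 0.78 when libraries were rescaled on B-lineage genes. Kit differed by 0.55, 0.04 and -0.43. Cd34, Lmo2 and Gata2 were higher in fraction C in ZnF1, by 2.81, 1.83 and 3.06, and lower by 0.30, 0.38 and 0.08 in wt. Fitted over the 6 libraries, limma called 0 of the 10 genes and 0 of all genes for C against B (0.0%), with 1 of the 10 and 511 of all genes at an unadjusted p under 0.05. Ly6d was that gene, with a log2 change of -1.59 ± 0.30 (SE) and an adjusted p of 0.854 in limma.

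**Figure D4:**
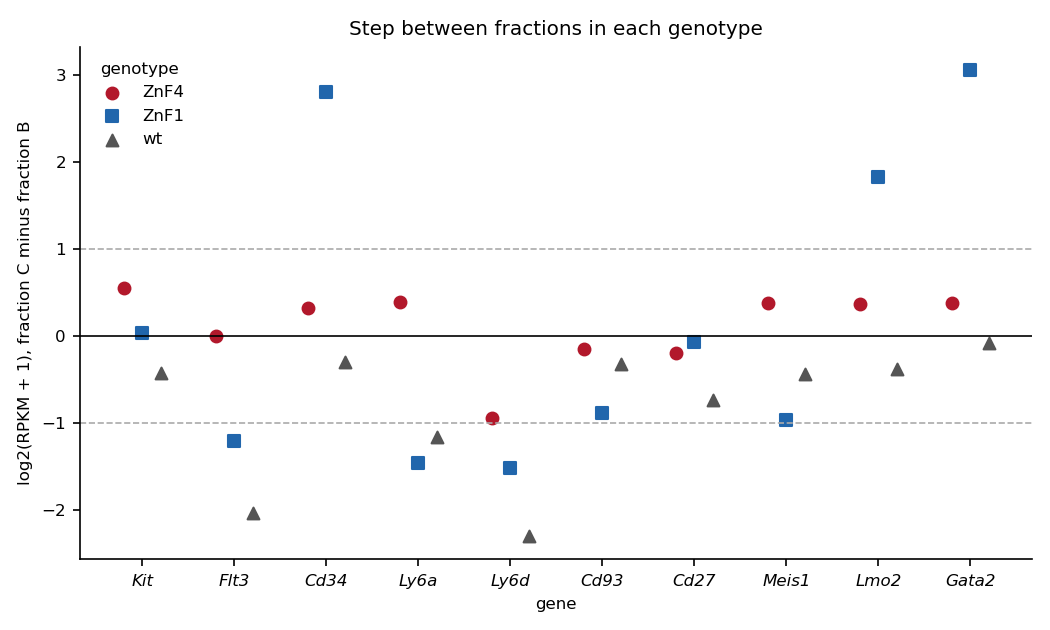
Points give the difference in log2(RPKM + 1) between fraction C and fraction B for each gene and genotype, with dashed lines at a 2-fold difference. Ly6d is below 0 in all 3 genotypes (-0.95, -1.52 and -2.30), and Cd34, Lmo2 and Gata2 stand apart in ZnF1 (2.81, 1.83 and 3.06).

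Other genes of stem and multipotent progenitors were read from a list of 34, of which 33 were in the table and 23 passed the filter. For ZnF4 against wt their median log2(RPKM + 1) difference was -0.36 in fraction C and -0.69 in fraction B, beside medians of -0.05 and -0.09 over all genes. In fraction C 4 of the 23 were at least 2-fold lower and 1 higher (6.12% and 3.55% of all genes), and in fraction B 8 lower and 1 higher (9.81% and 3.7%). Erg, an Ets factor of stem cells, had 15.1 and 4.6 RPKM in ZnF4 cells of fractions C and B, 70.9 and 164.7 RPKM in ZnF1 cells, and 76.9 and 113.0 RPKM in wt cells. Egfl7, a secreted protein that hosts a microRNA, had 2.4 and 0.8 RPKM in ZnF4 cells, 24.1 and 75.2 RPKM in ZnF1 cells, and 25.9 and 28.9 RPKM in wt cells. Both were low in ZnF4, as Flt3 was, but in fraction C were not above wt in ZnF1. Cdkn1c, a cell cycle inhibitor, went the other way, with 3.7 and 6.3 RPKM in ZnF4 cells and 0.5 and 0.6 RPKM in wt cells. For ZnF1 against wt the medians were 0.18 and 0.03 (all genes -0.16 and 0.04), with 7 of 23 at least 2-fold higher and 1 lower in fraction C (12.6% and 7.39% of all genes) and 3 higher and 0 lower in fraction B (2.07% and 2.21%). Of the 7 higher in fraction C, Cebpa and Prom1 passed the filter only through that ZnF1 library and so had to be high there. Hoxa9, among the 3 higher in fraction B, likewise passed only through the ZnF1 library of fraction B. The medians and shares of all genes given here also stand behind the lists that follow. limma called 0 of the 23 in any of the 4 comparisons.

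Lymphoid progenitor genes (19 of a list of 20 in the table, all 19 past the filter) did not move one way as a list. For ZnF4 against wt their medians were -0.07 and 0.02, with 3 at least 2-fold lower and 1 higher in fraction C and 5 lower and 1 higher in fraction B. Dntt, the enzyme that adds untemplated bases at V(D)J joints, was at 25.7 and 18.7 RPKM in ZnF4 cells, 281.2 and 739.4 RPKM in ZnF1 cells and 335.4 and 568.7 RPKM in wt cells. Dntt was thus low in ZnF4 cells in both fractions, as Flt3 and Cd27 were. Against ZnF1, limma called Dntt as lower in ZnF4, with a log2 change of -4.32 ± 0.48 (SE; adjusted p = 0.0413).

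Ligands and signalling partners of Kit and Flt3 made up a further list. Of 25 genes, 23 passed the filter, and their medians for ZnF4 against wt were 0.08 in fraction C and -0.07 in fraction B. At least 2-fold lower were 1 and 2 genes (6.12% and 9.81% of all genes), and 0 were higher (3.55% and 3.7%). Kitl, the ligand of Kit, was at no more than 0.3 RPKM in any library. Flt3l, the ligand of Flt3, was at 9.7 and 14.3 RPKM in ZnF4 cells, 8.4 and 5.0 RPKM in ZnF1 cells, and 4.8 and 7.2 RPKM in wt cells. The adaptor Dok2 was at 0.4 and 0.1 RPKM in ZnF4 cells, 26.7 and 14.9 RPKM in ZnF1 cells, and 3.9 and 5.5 RPKM in wt cells, and fell in ZnF4 against ZnF1 in limma (-4.08 ± 0.35, SE, adjusted p = 0.0377). For ZnF1 against wt the medians of the list were 0.40 and 0.19 (all genes -0.16 and 0.04), with 17 genes higher and 4 lower by any size in fraction C. At least 2-fold, 2 genes were higher and 0 lower in fraction C (12.6% and 7.39% of all genes). In fraction B, 1 was higher and 1 lower (2.07% and 2.21%).

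Partners of Lmo2 and Gata2 (18 genes, 17 past the filter) had medians of 0.07 and -0.17 for ZnF4 against wt, with 1 at least 2-fold higher and 1 lower in fraction C and 1 higher and 3 lower in fraction B. Tal1 and Gata1, which sit in a complex with Lmo2 in erythroid cells, were at 31.9 and 33.4 RPKM in ZnF1 cells of fraction C and at no more than 3.0 and 2.5 RPKM in the other 5 libraries. Like Lmo2 and Gata2, they were thus high in the library in which the granulocyte, erythroid and mast cell sums were all highest. Gata1 is itself among the erythroid genes summed, and the part of any of these cells was not tested. For ZnF1 against wt the medians were 0.00 and 0.07. At least 2-fold, 4 were higher and 0 lower in fraction C, and 0 higher and 1 lower in fraction B. Of the 4, Lmo1 passed the filter only through the ZnF1 library of fraction C and so had to be high there. Lmo4, a relative of Lmo2 that also binds Ldb1, was at 228.5 and 227.0 RPKM in ZnF4 cells, 53.3 and 24.6 RPKM in ZnF1 cells and 75.0 and 70.3 RPKM in wt cells. In limma Lmo4 rose in ZnF4 against ZnF1 (2.62 ± 0.33, SE, adjusted p = 0.0487), while the log2 change of Lmo2 was -1.55 ± 0.55 with an adjusted p of 0.207.

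Of 11 Pbx, Meis and Hox partners of Meis1, 8 passed the filter. For ZnF4 against wt their medians were -0.38 in fraction C and -0.54 in fraction B, with 1 at least 2-fold higher and 1 lower in fraction C and 0 higher and 3 lower in fraction B. Hoxa5, Hoxa7 and Hoxa9 were listed at 0 in both ZnF4 libraries. Hoxa9 was at 0.9 and 5.4 RPKM in ZnF1 cells of fractions C and B and 0.6 and 1.8 RPKM in wt cells, and Hoxa7 at 1.0 and 4.8 RPKM and at 1.4 and 2.0 RPKM. The highest value of both was that of ZnF1 cells of fraction B, as with Meis1. Hoxa7 and Hoxa9, however, passed the filter only through that library and so had to be high there. For ZnF1 against wt the medians were 0.31 and 0.25, with 2 at least 2-fold higher and 0 lower in fraction C and 1 higher and 0 lower in fraction B. Of the 2, Hoxa5 passed the filter only through the ZnF1 library of fraction C and so had to be high there. The 1 higher in fraction B was Hoxa9, which passed only through the ZnF1 library of fraction B. limma called 0 of the 8 in any of the 4 comparisons.

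Cd70, the ligand of Cd27, was listed at 0 in every library. Of 8 genes that act with Cd27 or Cd93, 6 passed the filter, all of them adaptors or inhibitors of death and TNF receptor signals. Their medians for ZnF4 against wt were 0.48 and 0.46, with 0 at least 2-fold apart in either fraction, and limma called 0. For ZnF1 against wt the medians were 0.04 and 0.15, with 1 at least 2-fold lower in fraction C and 0 in fraction B. Of 15 further Ly6 family genes, 14 were in the table and 4 passed the filter. Ly6e, which is widely expressed in lymphocytes, was at 551.5 and 638.8 RPKM in ZnF4 cells, 419.6 and 622.8 RPKM in ZnF1 cells and 389.4 and 495.5 RPKM in wt cells. Ly6c2, a monocyte and plasmacytoid dendritic cell antigen, was at 53.6 RPKM in ZnF1 cells of fraction C and at 0.7 to 3.3 RPKM in the other 5 libraries. Neither shared the pattern of Ly6a.

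The genes with patterns most like Flt3 over the 6 libraries, among 10933 others and by the root mean square difference of centred log2(RPKM + 1), were Gimap3 (0.40), Gpr97 (0.56) and Muc13 (0.58). Gimap3, a GTPase of lymphocytes, was at 0.3 and 0.2 RPKM in ZnF4 cells of fractions C and B, 16.5 and 35.6 RPKM in ZnF1 cells, and 3.1 and 6.5 RPKM in wt cells. It had the same order of genotypes as Flt3 in both fractions, but it was picked for its likeness to Flt3 in these same libraries. Nearest to Cd34 were Aoah (0.04), Ptplad2 (0.08) and Fgd4 (0.10), and Aoah, a lipase that inactivates bacterial lipopolysaccharide in myeloid cells, was at 12.1 RPKM in ZnF1 cells of fraction C and at 0.1 to 1.4 RPKM elsewhere. Nearest to Kit were Rps13 (0.07), Kcnk6 (0.10) and Gltp (0.10). Gltp, a glycolipid transfer protein, was at 53.4 and 38.1 RPKM in ZnF4 cells, 78.8 and 80.4 RPKM in ZnF1 cells and 60.8 and 66.1 RPKM in wt cells. Rps13, a ribosomal protein gene, was listed at 0.4 to 1.5 RPKM, and its values are uncertain because such genes have near-identical copies.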

How the data were processed

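The deposited table gives RPKM, computed by the authors for each RefSeq transcript per the file headers and rounded to 0.1, beside the transcript length in bases, another deposited column, per the file headers. The submitters' processing notes name build mm9, TopHat and bedtools without versions or roles. The treatment of strand, of shared reads and of the RPKM denominator is not given in the sources used here. The table held 26532 entries, and 1 without a gene name was left out. Other samples had 0 columns. Some genes of the lists are not reported here. For each symbol the transcript with the highest mean was used, and the 10943 genes whose mean reached 1 RPKM were tested.

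Read numbers were not recovered: at the best depth, 37.3% to 72.8% of low values of transcripts up to 500 bases fitted whole reads, where chance gives 27.5% to 69.6%. Differences are of log2(RPKM + 1), with a pseudocount of 1. limma 3.58.1 (lmFit, and eBayes with trend, in R 4.3.3) was fitted to all 6 libraries with genotype and fraction as terms and two-sided p-values adjusted by Benjamini-Hochberg over all genes tested, and was tested on simulated data. Its p-values measure only the spread between these libraries. The genes, the lists and the tests were chosen with earlier results of these data known. All 10 genes were measured in every comparison, though some of their differences are not printed. From each list the genes with the largest and smallest differences may be given as examples. Alternatives were other pseudocounts, filters, scalings and transcript summaries, no fraction term, and each library left out in turn.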

Additional observations from a re-analysis of the deposited data

Results flagged for a closer look

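In 4 of the 10 genes the step between fractions ran in opposite directions in different genotypes, with both steps past a small minimum size on the log2(RPKM + 1) scale, as in 21.0% of all genes. With 1 library for each genotype and fraction, these differences were not tested. Kit was 0.55 higher in fraction C than in fraction B in ZnF4 and differed by -0.43 in wt. Ly6a was 0.40 higher in ZnF4 and differed by -1.46 in ZnF1 and -1.16 in wt. Meis1 was 0.38 higher in ZnF4 and differed by -0.96 in ZnF1 and -0.43 in wt, but was listed at 0 in ZnF4 of fraction B. Lmo2 was 0.36 higher in ZnF4 and 1.83 higher in ZnF1, and differed by -0.38 in wt. Over all 10943 genes the median step was 0.11 in ZnF4, -0.16 in ZnF1 and 0.06 in wt.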

How the results depend on the processing

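No paired analysis was possible because each genotype and fraction has 1 library and the labels give no replicate numbers. No difference past its threshold in the values as reported changed sign under an alternative run. Calls made only without a library did: for ZnF1 against wt, Cd93 (-0.54) and Cd34 (2.65) without ZnF1 of fraction B were 0.12 and -0.14 without ZnF1 of fraction C, and for ZnF4 against wt, Cd34 (-0.86) without ZnF1 of fraction B was 0.07 without wt of fraction B. Of the 10 genes, those lower at least 2-fold in both fractions for ZnF4 against wt numbered 2, and 4 with a pseudocount of 0.25, 6 with 0.1 and 4 with libraries rescaled on B-lineage genes. Those higher in ZnF1 than in wt numbered 1, and 2 with either pseudocount. Those lower in ZnF4 than in ZnF1 numbered 4, and 6 with either pseudocount and 5 with transcripts summed. In fraction B alone this count was 4, and 7 with either pseudocount. Cd34 and Gata2, which the smaller pseudocounts added to the count over both fractions, passed the filter only through ZnF1 of fraction C. For C against B the count was 0, and 1 with libraries rescaled on the median of all genes. Summing all transcripts of a symbol was added after the data were seen. Rescaling on B-lineage genes moved the median of all genes most for C against B in ZnF1, to 0.64, where it was -0.16 as deposited.

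limma called 3 genes of all genes for ZnF4 against wt, and 5 with a pseudocount of 0.25, 0 without a filter (2426 at an unadjusted p under 0.05), 1 with a filter of 5 RPKM, 1 rescaled on B-lineage genes and 84 without the fraction term. For ZnF1 against wt it called 3, and 0 without a filter (1305 unadjusted), 1 with a filter of 5 RPKM, 1 rescaled and 6 without the fraction term. For ZnF4 against ZnF1 it called 199, and 0 without a filter (3025 unadjusted), 0 rescaled (1898 unadjusted) and 451 without the fraction term. Of the 10 genes it called 1 in that comparison, and 2 with a pseudocount of 0.25, 0 without a filter, 0 rescaled and 2 without the fraction term. Leaving out a library leaves 1 residual degree of freedom and assumes that a lone library varies like the others. The counts then ranged from 0 to 3453, 0 to 4116 and 0 to 4109 of all genes in the 3 comparisons, and from 0 to 5, 0 to 5 and 0 to 8 of the 10 genes. The highest counts came without a ZnF1 library: 3453 without that of fraction C, and 4116 and 4109 without that of fraction B. The cause was not tested. For C against B the count was 0 in every alternative run, and the fit without a fraction term gives none. Values at or below 0.4 RPKM are a few rounding steps, which limits what can be said of Flt3, Meis1, Cd34 and Gata2 in ZnF4.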
